A study of Homo sapiens with 18 samples.

Results

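The genes of vesicle traffic between the endoplasmic reticulum (ER) and the Golgi were examined in TempO-Seq libraries of 3 triple-negative breast cancer (TNBC) cell lines. The module held 55 genes, chosen by symbol, with no threshold on a measured value, from the 19289 symbols of the table and read by 58 probes, with 2 each for SEC13, SEC24A and GORASP1. The genes fall into 7 classes: COPI coatomer (9 genes), the COPII coat and its assembly (15), the p24 family (8), cargo receptors (8), KDEL receptors (3), SNAREs with the SEC22 family (8), and tethers and Golgi matrix proteins (4). BT549 and Hs578T are mesenchymal-like lines and SUM149PT is a basal-like line, all grown from human breast tumors. Each was transfected with 50 nM of siASAP1, an siRNA pool against the Arf GTPase-activating protein ASAP1, or with siCtrl, which the study's methods describe as a pool of kinase siRNAs, and was lysed after 72 h. There were 3 libraries per line and treatment, 18 in all, which the study calls biological triplicates. A single siRNA pool was used against ASAP1, so an effect of ASAP1 loss and an effect of that pool on other transcripts cannot be told apart.

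Newly made secretory and membrane proteins leave the ER in vesicles coated by COPII. The small GTPase SAR1, switched on by PREB at sites organised by SEC16A and TFG, recruits the inner coat of SEC23 and SEC24, which picks up cargo, and the outer cage of SEC13 and SEC31 bends the membrane. Cargo receptors such as LMAN1 with MCFD2, SURF4 and the ERGIC proteins, and the p24 proteins of the TMED genes, link cargo to the coats. COPI, a complex recruited by the GTPase ARF1, carries material back from the Golgi, including ER residents caught by the KDEL receptors, and ARF1 is turned off by Arf GTPase-activating proteins. SNAREs (STX5, GOSR1, GOSR2, BET1, SEC22B, YKT6) and tethers (USO1, GOLGA2 and the GORASP proteins) then bring vesicle and target together.

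TempO-Seq ligates a pair of detector oligonucleotides on each target RNA and counts the ligated product, so each probe samples only a small part of its transcript. The values below are normalized read counts, the authors' counts per probe divided by 1 size factor per library. The libraries held 4.63 to 12.5 M reads (median 6.63 M), of which the members took 25369 to 96951 reads, or 0.543% to 0.849%. ASAP1 itself was read at 367, 729.7 and 783 in siASAP1 against 1107, 966 and 944 in siCtrl libraries of BT549, and at 782, 825 and 1261 against 1641, 1414 and 2697 in Hs578T. In SUM149PT it had 282, 468 and 184 in siASAP1 against 1087, 189 and 1314 in siCtrl. In the library labelled siCtrl replicate 2 of SUM149PT, ASAP1 thus lay inside the siASAP1 range. Several values of SUM149PT are therefore also given without that library. Other genes were mixed there. The higher VIM probe had 1994, outside the siASAP1 range of 791 to 1040. CDH1 had 114, below the siASAP1 range of 210 to 263, and KRT17, KRT6A and the 3 FN1 probes also lay below their siASAP1 ranges. These are the marker probes named at the end of this paragraph as changed after siASAP1 in SUM149PT, with that library counted as a control. EPCAM had 20396, inside the siASAP1 range of 18650 to 24189. Whether the label is wrong was not tested. The Log2 FC of ASAP1, defined below, was -0.75 (SE 0.39, limma adjusted p = 0.647) in BT549, -0.98 (SE 0.32, limma adjusted p = 0.915) in Hs578T and -1.16 (SE 0.77, limma adjusted p = 0.657) in SUM149PT. With all libraries kept, it missed the limits used below in each line. The SUM149PT value includes the library labelled siCtrl replicate 2, and a Log2 FC of ASAP1 without that library is not given. The study reported a knockdown of ASAP1 in these lines by RT-qPCR and also in its TempO-Seq data, fitted with DESeq2. The range of Log2 FC it gave for TempO-Seq covers the values above. Epithelial markers, including CDH1 and EPCAM, summed to 0 to 16.3 normalized counts in BT549, 27.0 to 87.3 in Hs578T and 29929.9 to 43073 in SUM149PT, with KRT14 near 0 in all 3 lines. Mesenchymal markers, including VIM and FN1, summed to 61197 to 112054, 170199 to 287903 and 5933 to 12197 in the same order. Of these, CDH2 went the other way between SUM149PT (1434 to 2325) and BT549 (253 to 691), and ZEB1 was near 0 in all 3 lines. Hormone receptors with HER2 summed to 26.4 to 80.3, 29.5 to 83.7 and 69.2 to 280.5. After siASAP1 in SUM149PT, 3 of 8 tested epithelial probes (CDH1, KRT17 and KRT6A) and 3 FN1 probes were higher and 1 VIM probe was lower by the limits used below, and their part in the results was not tested.

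Differences between groups are log2 differences (Log2 FC) of normalized count plus 1, with the standard error (SE) of limma, fitted over all probes whose normalized counts averaged 10 or more in the libraries compared. In the siASAP1 comparisons the limits of the study were kept, an absolute Log2 FC over 1 together with an unadjusted p under 0.05. A Benjamini-Hochberg adjusted p of limma is given beside them. The filter kept 50 of the 58 member probes in BT549, 52 in Hs578T, and 50 for SUM149PT. COPZ2, SEC31B, SEC23IP, LMAN2L, YKT6 and the second GORASP1 probe did not pass over the 18 libraries together. YKT6 was listed at 0 in all libraries but 1, where it had 4.44, and LMAN2L in all but 1, where it had 5.47, so nothing can be said of their response.

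ERGIC1, a cargo receptor-like protein that cycles between the ER, the intermediate compartment and the Golgi, was lower after siASAP1 in each cell line. It lies on the plus strand of chromosome 5 (GRCh38, GENCODE release 29, chr5:172834275-172952685). In BT549 it had 169, 242 and 193 normalized counts in the siASAP1 libraries against 902, 586 and 653 in siCtrl. In Hs578T it had 279.9, 304 and 390.3 against 792, 521 and 840.4. In SUM149PT it had 18.5, 84.6 and 56.5 against 402, 319 and 374, the lowest value resting on 14 reads. All 9 siASAP1 libraries thus lay below every siCtrl library of their own line. The siASAP1 mean fell to 28.2% of the siCtrl mean for BT549, 45.2% for Hs578T and 14.6% for SUM149PT.

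The Log2 FC of ERGIC1 was -1.81 (SE 0.38, limma adjusted p = 0.265) in BT549, -1.13 (SE 0.30, limma adjusted p = 0.876) in Hs578T and -2.99 (SE 0.62, limma adjusted p = 0.331) in SUM149PT. It passed the study's limits in each line, and none of these adjusted p-values was under 0.05. Without Hs578T siCtrl replicate 3 its Log2 FC there was -0.998 and missed the limit on size. In the fit over all 18 libraries with the cell line as a term, the Log2 FC was -1.98 (SE 0.30, limma adjusted p = 0.00244), the ninth smallest p of 10475 probes. This adjusted p stayed between 0.000703 and 0.00765 when each library was left out in turn. Over 8 other settings it ran from 0.00181 to 0.0448, the highest close to the limit. Without the SUM149PT library labelled siCtrl replicate 2, the Log2 FC in SUM149PT was -3.09 (SE 0.67). In that library ERGIC1 had 319 normalized counts, near the 402 and 374 of the other siCtrl libraries, although ASAP1 had 189. A difference of ERGIC1 between the 3 lines was not called (interaction unadjusted p = 0.0226, limma adjusted p = 0.654).

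The other members of the ERGIC family had other values. ERGIC2, a partner in the same receptor complex, had 4368, 2249.5 and 2445 after siASAP1 against 3765, 3360.4 and 3350.3 in BT549, a Log2 FC of -0.27 (SE 0.35). Its 3 siCtrl libraries of SUM149PT spread from 2141 to 9194, the highest being the library labelled siCtrl replicate 2, and its Log2 FC there was 0.04 (SE 0.62), or 0.69 (SE 0.42) without that library. ERGIC3 had 196, 193 and 219.7 against 122, 102 and 109 in Hs578T, a Log2 FC of 0.87 (SE 0.30) that missed the limit on size although the libraries did not overlap. In SUM149PT ERGIC3 had 11.9, 178 and 5.26 against 90.1, 41.9 and 129, which overlap. The common Log2 FC over the 3 lines was -0.12 (SE 0.25) for ERGIC2 and -0.26 (SE 0.52) for ERGIC3, and neither passed the test.

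ARCN1, the delta subunit of the COPI coat, lies at chr11:118572390-118603033 on the plus strand and was the other member that fell in the common fit. It had 212, 194 and 217 normalized counts after siASAP1 against 356, 319 and 293 in BT549. In Hs578T it had 201, 189.6 and 247 against 334, 252 and 474. In SUM149PT it had 102, 177 and 216 against 276, 303 and 312. No siASAP1 library reached the siCtrl range of its own line, although 247 and 252 in Hs578T nearly meet. The common Log2 FC was -0.74 (SE 0.18, limma adjusted p = 0.0434). That call lies close to its limit: it was lost in 16 of 18 fits that left out 1 library, the SUM149PT library labelled siCtrl replicate 2 among them, with adjusted p between 0.0342 and 0.0838, while the Log2 FC ran from -0.81 to -0.64. Scaling by library totals gave -0.61 (limma adjusted p = 0.0848).

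ERGIC1 and ARCN1 were the only members with all siASAP1 libraries below all siCtrl libraries in each of the 3 lines, a pattern held by 0.601% of 10475 probes. No member lay above siCtrl in the same way, against 0.305% of probes. ERGIC1 passed the study's limits downward in all 3 lines, as did 0.213% of the 7990 probes tested in each. In the common fit 2 of 52 member probes had an adjusted p under 0.05, both lower, against 1.74% of all probes (1.06% lower), and 6 members had an unadjusted p under 0.05, against 15.8% of all probes.

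**Figure D1:**
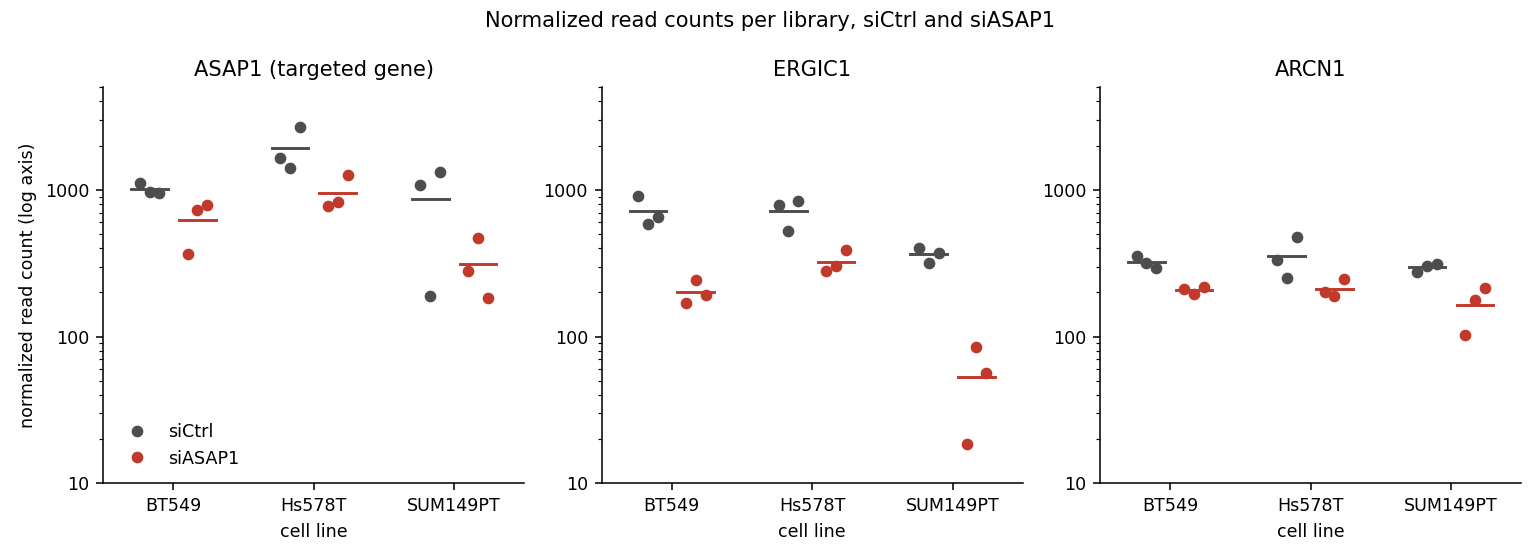
Normalized read counts (log axis) of ASAP1, ERGIC1 and ARCN1 in each library of BT549, Hs578T and SUM149PT, with siCtrl in grey, siASAP1 in red and bars at the mean of 3 libraries. The siASAP1 points of ERGIC1 and ARCN1 lie below the siCtrl points of their line in every case, while 1 siCtrl point of SUM149PT lies at 189 for ASAP1, among the siASAP1 points.

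No COPI subunit passed the study's limits within a line. In the common fit 6 of the 8 COPI probes tested were below 0 (median -0.41). COPE, the epsilon subunit, had -0.50 (SE 0.27) and COPG1, a gamma subunit, had -0.23 (SE 0.17). COPB2, the beta prime subunit, had 0.42 (SE 0.20), with 165, 151 and 203 in siASAP1 against 124, 101 and 111 in siCtrl of Hs578T, and its libraries overlapped in the other lines. COPA was read at 0 to 37.4 and did not pass the filter in SUM149PT.

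By line, the values of the whole module after siASAP1 were as follows, with differences between lines tested further below. In BT549, 4 of 50 member probes passed the limits and all were lower, where 6.97% of all probes passed (3.69% lower and 3.28% higher). The median Log2 FC of the members was -0.32 and that of all probes 0.00, and 37 of the 50 members were below 0 (74%, against 50.1% of all probes). In Hs578T, 1 of 52 passed (ERGIC1), where 2.78% of all probes passed (1.44% lower and 1.34% higher). The median was -0.05 against 0.01, and 27 of 52 were below 0 (51.9%, against 49.2%). In SUM149PT, 2 of 50 passed, ERGIC1 lower and SEC24B higher, where 9.56% of all probes passed (4.29% lower and 5.27% higher), and the median was -0.16 against 0.09. There 29 of 50 were below 0 (58%, against 46.5%). With limma adjusted p-values, 0 members and 0 of all probes passed in each line, with 4, 4 and 2 members at an unadjusted p under 0.05, against 7.8%, 5.28% and 10.2% of all probes. Without overlap between the groups, 6 member probes were lower and 2 higher in BT549 (6.51% and 7.35% of all probes), 5 and 2 in Hs578T (5.78% and 6.31%), and 5 and 3 in SUM149PT (8.41% and 8.87%). Scaling by library totals turned the member median to 0.06 in both Hs578T and SUM149PT, while the median of all probes moved to 0.12 and 0.30.

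Without the library labelled BT549 siASAP1 replicate 1, which lies farthest from its group along the main axis of replicate variation in that line, 9 members passed the limits in BT549, all lower, and 22.5% of all probes did. The members were KDELR2, KDELR3, SEC24A, SEC24B, SEC31A, SAR1A, TMED3, GORASP2 and ERGIC1. The limma adjusted p was then 0.0335 for ERGIC1 and 0.0474 for SEC31A. Without BT549 siCtrl replicate 1 only ERGIC1 and KDELR3 passed, and 5.37% of all probes did. Without the library labelled SUM149PT siCtrl replicate 2, 10 members passed in SUM149PT, where 23.4% of all probes passed, 3 lower (ERGIC1, COPE and TMED1) and 7 higher (SEC23B, SEC24A, SEC24B, SEC31A, SAR1A, TFG and USO1), and the member median was -0.22 against 0.11 for all probes. Leaving out siASAP1 replicate 1 or 3 or siCtrl replicate 1 or 3 of SUM149PT left ERGIC1 alone, with 4.95% to 5.87% of all probes passing.

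**Figure D2:**
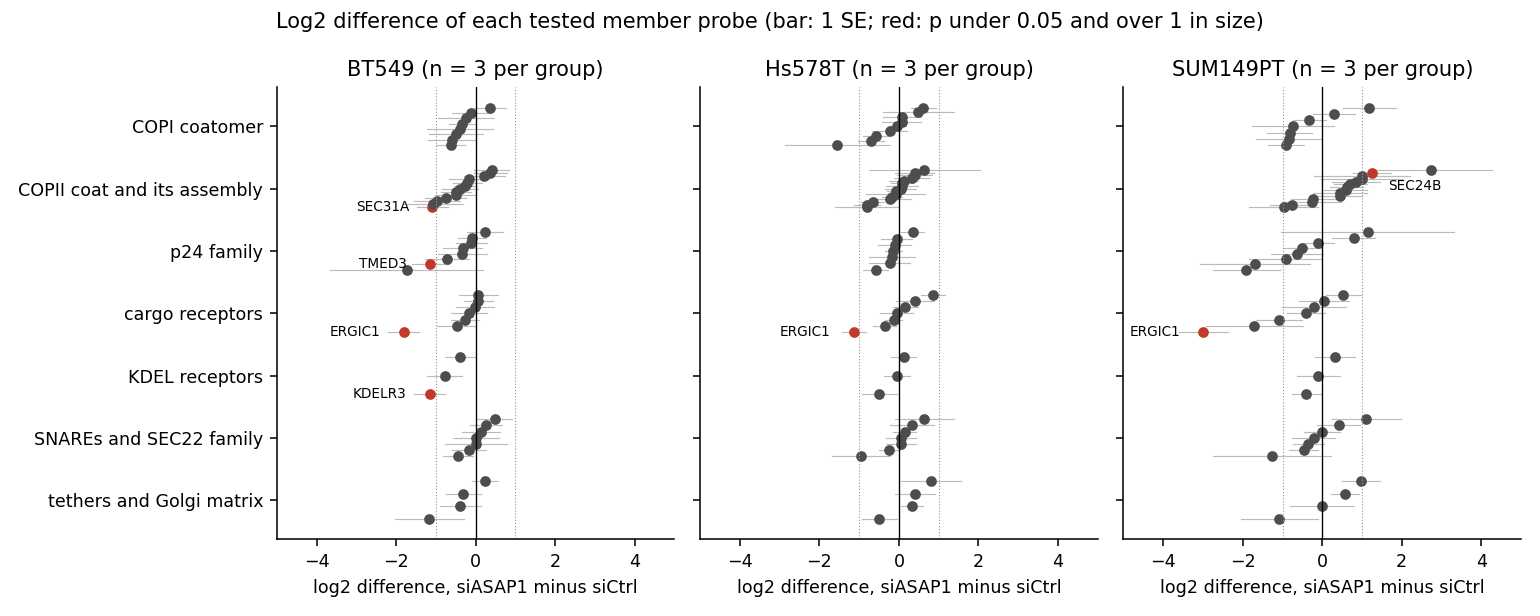
Log2 difference (siASAP1 minus siCtrl, horizontal axis) of each tested member probe in BT549, Hs578T and SUM149PT, by class, with bars of 1 SE and red points for an unadjusted p under 0.05 with an absolute difference over 1. ERGIC1 is red in each line, 3 more members are red in BT549, all on the left, and SEC24B is red on the right in SUM149PT.

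Across the 3 lines 17 of 48 member probes tested in each were below 0 in all of them (35.4%, against 19.9% of 7990 probes), and 5 were above 0 in all (10.4%, against 19.3%). The 17 included 5 p24 family members (TMED1, TMED2, TMED3, TMED9 and TMED10), 4 COPI subunits (ARCN1, COPB1, COPE and COPG1), 3 of the COPII genes (SEC13 by 1 of its probes, SEC24C and SAR1B), ERGIC1, LMAN1, KDELR3, SEC22B and GORASP1. Without the library labelled SUM149PT siCtrl replicate 2 these were 14 of 48 (29.2%, against 16.1% of 7939 probes) and 4 (8.33%, against 15.5%), with SAR1B, SEC22B and GORASP1 no longer below 0 and STX5 no longer above 0 in SUM149PT. The 5 above 0 were COPB2, SEC23B, PREB, STX5 and GOLGA2. GOLGA2, a Golgi tether also known as GM130, had 927, 974 and 1139.7 against 817, 879.7 and 861 in BT549 and 1438, 1379 and 1180.1 against 884, 746 and 1081 in SUM149PT, with no overlap in either, and a common Log2 FC of 0.38 (SE 0.14, limma adjusted p = 0.19).

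The KDEL receptors return escaped ER chaperones and exist as 3 paralogs. KDELR3, at chr22:38468062-38483447, passed the limits in BT549, with 160.0, 122 and 133 normalized counts after siASAP1 against 326, 294 and 306 in siCtrl (Log2 FC -1.16, SE 0.38, limma adjusted p = 0.55). The groups were well apart. In Hs578T it had 433, 862 and 341 against 741, 1132 and 426, and in SUM149PT 66.1, 110.2 and 109 against 62.9, 101 and 153, and both overlap. KDELR2 had 548, 397 and 265 against 1016, 516 and 558 in BT549 (Log2 FC -0.78, SE 0.43). KDELR1 had 428, 455 and 382 against 434, 748 and 526 (Log2 FC -0.40, SE 0.37). Neither passed, and the difference between the paralogs was not tested.

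Among the COPII genes, SEC31A, the outer cage protein at chr4:82818661-82901166 on the minus strand, passed the limits in BT549 with 3427, 1948 and 1582 after siASAP1 against 6563, 3469.8 and 4471 (Log2 FC -1.09, SE 0.39, limma adjusted p = 0.599). It fell short in 3 of 6 fits that left out 1 BT549 library. In Hs578T the Log2 FC was 0.07 (SE 0.40). In SUM149PT it had 2813, 1956 and 2809.6 against 1374, 2394 and 1087, a Log2 FC of 0.70 (SE 0.42), and 1.03 (SE 0.33, limma adjusted p = 0.112) without the library labelled siCtrl replicate 2, which held the 2394. The test of a difference between the lines gave an unadjusted p of 0.0284 and a limma adjusted p of 0.712.

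SEC24B, a cargo-binding subunit of the inner coat, had 247, 165 and 164 after siASAP1 against 58.6, 107 and 76.7 in SUM149PT (Log2 FC 1.26, SE 0.48, limma adjusted p = 0.453). This call was lost in 4 of 6 fits that left out 1 SUM149PT library, and the Log2 FC was 1.48 (SE 0.48) without the library labelled siCtrl replicate 2. In BT549 it had 102, 25.5 and 57.5 against 86.1, 149 and 93.3, which overlap, with a Log2 FC of -0.98 (SE 0.58). Its interaction p was 0.0299 unadjusted and 0.727 adjusted with limma. The paralog SEC24C had 142, 134 and 100.2 against 202, 189 and 265 in Hs578T without overlap, a Log2 FC of -0.80 (SE 0.32) that missed the limit on size. In all, 0 of 52 member probes had an interaction adjusted p under 0.05 in limma or with voom weights, against 0.00955% of all probes, and 3 had an unadjusted p under 0.05, against 6.22%.

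TMED3, a p24 cargo adaptor, had 446, 575 and 259 after siASAP1 against 1559, 619 and 743 in BT549, where it passed the limits (Log2 FC -1.14, SE 0.47, limma adjusted p = 0.622). The spread was wide in siCtrl and the nearest values were 575 and 619. Its Log2 FC was -0.24 (SE 0.52) in Hs578T and -0.10 (SE 0.40) in SUM149PT. No SNARE, SEC22 or tether gene passed the limits in any line with all libraries.

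In the siCtrl libraries most member probes had a Log2 FC below 0 in SUM149PT against each of the other lines. The limits here were an absolute Log2 FC over 1 with a limma adjusted p under 0.05, fitted on the 9 siCtrl libraries, and these libraries are also the controls of the siASAP1 comparisons. Against BT549, 6 of 52 member probes were lower in SUM149PT and 0 higher (18.2% of all probes passed, 8.76% lower and 9.4% higher). Against Hs578T, 7 were lower and 0 higher (20.2% of all probes, 10.5% lower and 9.64% higher). The median Log2 FC of the members was -0.49 and -0.78, while that of all probes was -0.04 and 0.00, and 38 and 39 of 52 were below 0 (73.1% and 75%, against 51.3% and 50.1%). An unadjusted p under 0.05 was seen for 12 and 13 members, against 30.1% and 33% of all probes. The SUM149PT siCtrl libraries all lay below the 6 libraries of the other lines for 9 member probes, COPG1, SEC31A, SAR1B, ERGIC1, SEC22B, 1 SEC13 probe and KDELR1, KDELR2 and KDELR3 (8.25% of all probes), and above them for 0 (9.66%). Against BT549 alone, 14 member probes were lower without overlap and 1 higher (15.8% and 17% of all probes). Against Hs578T alone these were 11 and 2 (17.6% and 17.8%). Between the other lines, 9 were lower and 10 higher in BT549 than in Hs578T (18.9% and 17.8%).

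KDELR3 had the smallest SUM149PT share of the Hs578T mean among the members that passed. It was read at 62.9, 101 and 153 in SUM149PT siCtrl, 326, 294 and 306 in BT549 and 741, 1132 and 426 in Hs578T, with no overlap between any of the lines. The SUM149PT mean was 13.8% of the Hs578T mean (Log2 FC -2.82, SE 0.45, limma adjusted p = 0.00145) and 34.3% of the BT549 mean (Log2 FC -1.63, SE 0.45, limma adjusted p = 0.0328). The difference between BT549 and Hs578T was -1.20 (SE 0.45, limma adjusted p = 0.122), so these neighbours were not separated by the test.

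KDELR2, at chr7:6445953-6484242, was read at 213, 304 and 141 in SUM149PT, 1016, 516 and 558 in BT549 and 1026, 1416 and 674 in Hs578T. Its Log2 FC was -2.24 (SE 0.44, limma adjusted p = 0.00464) against Hs578T and -1.66 (SE 0.44, limma adjusted p = 0.024) against BT549. KDELR1 was read at 355, 354 and 387 in SUM149PT, 434, 748 and 526 in BT549 and 727, 913 and 576 in Hs578T. Its Log2 FC was -0.99 (SE 0.33, limma adjusted p = 0.0596) and -0.60 (SE 0.33, limma adjusted p = 0.255), and neither passed. The order of the lines in mean level was SUM149PT, BT549, Hs578T for all 3 paralogs, and BT549 and Hs578T did not differ by the test for any of them.

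In the outer COPII cage, SEC31A was lower in SUM149PT than in both other lines and SEC13 was lower than in BT549. SEC31A was read at 1374, 2394 and 1087 in SUM149PT, 6563, 3469.8 and 4471 in BT549 and 6650.2, 7809.9 and 2505 in Hs578T, a Log2 FC of -1.61 (SE 0.49, limma adjusted p = 0.0482) and -1.73 (SE 0.49, limma adjusted p = 0.0334). These calls were lost in 7 and 5 of 9 fits that left out 1 siCtrl library. SEC13, the partner of SEC31 and also a nuclear pore protein, has 2 probes. The higher probe was read at 2523, 4951 and 2189.9 in SUM149PT against 10162, 10582 and 12845 in BT549 (Log2 FC -1.89, SE 0.36, limma adjusted p = 0.00473). The lower probe was read at 645, 355 and 786 against 2165, 1263 and 1362 (Log2 FC -1.45, SE 0.37, limma adjusted p = 0.0214). Against Hs578T neither SEC13 probe passed (Log2 FC -0.78, SE 0.36, limma adjusted p = 0.167 for the higher and -0.67, SE 0.37, limma adjusted p = 0.245 for the lower), and the higher probe's 4951 in SUM149PT lay above the lowest Hs578T library, at 4244.

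COPG1 and COPG2 encode alternative gamma subunits of COPI. COPG1 was read at 1599, 967 and 1467 in SUM149PT against 4079, 2526 and 2683 in BT549 and 3165, 3559.8 and 3632 in Hs578T (Log2 FC -1.20, SE 0.32, and -1.39, SE 0.32, limma adjusted p = 0.0261 and 0.0119). Its call against BT549 was lost on size, at -0.98 (SE 0.27), without the library labelled SUM149PT siCtrl replicate 2. The call against Hs578T was kept, at -1.17 (SE 0.27). COPG2 was read at 58.6, 23.7 and 20.8 in SUM149PT, 61.1, 27.0 and 48.4 in BT549 and 248, 345 and 91.6 in Hs578T. Its Log2 FC was -2.65 (SE 0.65, limma adjusted p = 0.0169) in SUM149PT against Hs578T, and -2.18 (SE 0.65, limma adjusted p = 0.0535) in BT549 against Hs578T, which missed the limit. Without the library labelled SUM149PT siCtrl replicate 2, COPG2 passed in BT549 against Hs578T (limma adjusted p = 0.036). The GTPase SAR1B and the SNARE SEC22B, at 362, 812 and 467 and at 491, 667 and 539 in SUM149PT, were also lower than in Hs578T (Log2 FC -1.47, SE 0.38, and -1.22, SE 0.28, limma adjusted p = 0.0222 and 0.0121). SEC22B has near-identical copies in the genome, and reads of a short probe may be shared with them.

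Between the mesenchymal-like lines 2 members passed the limits with all 9 siCtrl libraries, both lower in BT549 than in Hs578T. Of all probes 13.8% passed (7.58% lower and 6.26% higher). An unadjusted p under 0.05 was seen for 10 members (25.9% of all probes). MCFD2, the partner of LMAN1 in the export of coagulation factors, was read at 193, 122 and 159 in BT549 against 542, 587 and 395 in Hs578T (Log2 FC -1.68, SE 0.39, limma adjusted p = 0.0166). BET1, a SNARE, was read at 457, 255 and 278 against 1031, 1709 and 583 (Log2 FC -1.66, SE 0.43, limma adjusted p = 0.0282). LMAN1 itself was read at 247, 189 and 227 against 85.2, 47.3 and 55.2, a Log2 FC in the other direction of 1.84 (SE 0.62, limma adjusted p = 0.0834) that missed the limit. The fit shares its spread with the SUM149PT libraries. Without the library labelled SUM149PT siCtrl replicate 2, LMAN1 passed (SE 0.34, limma adjusted p = 0.00462). Both calls, MCFD2 and BET1, were lost in 4 of 9 fits that left out 1 siCtrl library.

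Without the library labelled SUM149PT siCtrl replicate 2 the counts rose to 7 members in BT549 against Hs578T, 12 in SUM149PT against BT549 and 15 in SUM149PT against Hs578T, while 21.3%, 33.2% and 30.7% of all probes passed. The member medians were then -0.11, -0.53 and -0.57, against 0.01, -0.10 and -0.08 for all probes. In BT549 against Hs578T, LMAN1 (1.84), the higher SEC13 probe (1.105) and TMED5 (1.02) then passed as higher. There COPE, COPG2, MCFD2 and BET1 passed as lower. KDELR2, KDELR3, SEC31A, SAR1A, SAR1B, TFG, SEC22A and the higher probes of SEC13 and SEC24A passed as lower in SUM149PT in both comparisons of that line. Of these, only KDELR2, KDELR3 and SEC31A passed in both with all libraries. TMED2, SEC16A and LMAN1 then passed as higher in SUM149PT in 1 of the comparisons. Over all fits with 1 library left out, the counts ran from 0 to 7, 1 to 12 and 3 to 15. KDELR3 and KDELR2 against Hs578T and the higher SEC13 probe against BT549 passed in all 9 such fits, while KDELR2 and KDELR3 against BT549 were lost in 4 and 5 and COPG2 against Hs578T in 3.

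**Figure D3:**
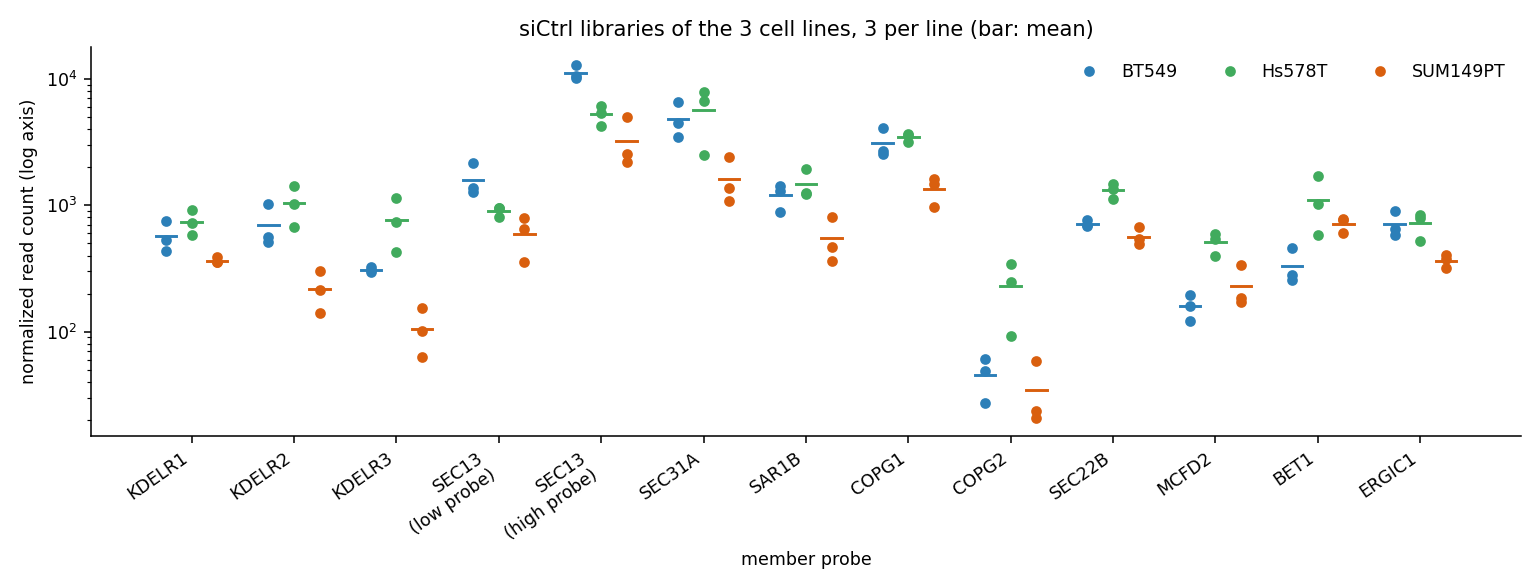
Normalized read counts (log axis) of 13 member probes in the 9 siCtrl libraries, 3 per cell line, with bars at the mean. For KDELR1, KDELR2, KDELR3, SEC31A, SAR1B, COPG1, SEC22B and ERGIC1 the SUM149PT points lie below all points of BT549 and Hs578T, while MCFD2 and BET1 have their lowest mean in BT549.

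Part of the spread between replicates was shared by many probes. The leading component of the deviations of the 18 libraries from their group means held 42.5% of that variance, with scores of 0.56 for the library labelled SUM149PT siCtrl replicate 2 and 0.34 for BT549 siASAP1 replicate 1. Of 52 member probes, 16 correlated with it at r over 0.5 (30.2% of all probes) and 18 at r under -0.5 (26.2%). Members of 1 coat moved apart along it. The COPII genes SEC24A, TFG and SAR1A had r of 0.94, 0.88 and 0.87 while SEC16A and SEC24C had -0.92 and -0.79. The receptor LMAN1 had -0.85. In the 3 siCtrl libraries of SUM149PT, SAR1A was read at 34.3, 453 and 14.4 and LMAN1 at 206, 48.3 and 272, so replicate 2 was high for one and low for the other. The r of a probe with this component ran against the GC content of its transcript (r = -0.52 over 52 member probes and -0.44 over 10208 probes, which share the same libraries), and its part in the results was not tested. The 2 probes of SEC13, a single gene, had r of -0.83 and 0.78, so their replicate values ran in opposite directions while both were lower in SUM149PT than in BT549. ERGIC1 had r of -0.55 and ARCN1 -0.26.

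**Figure D4:**
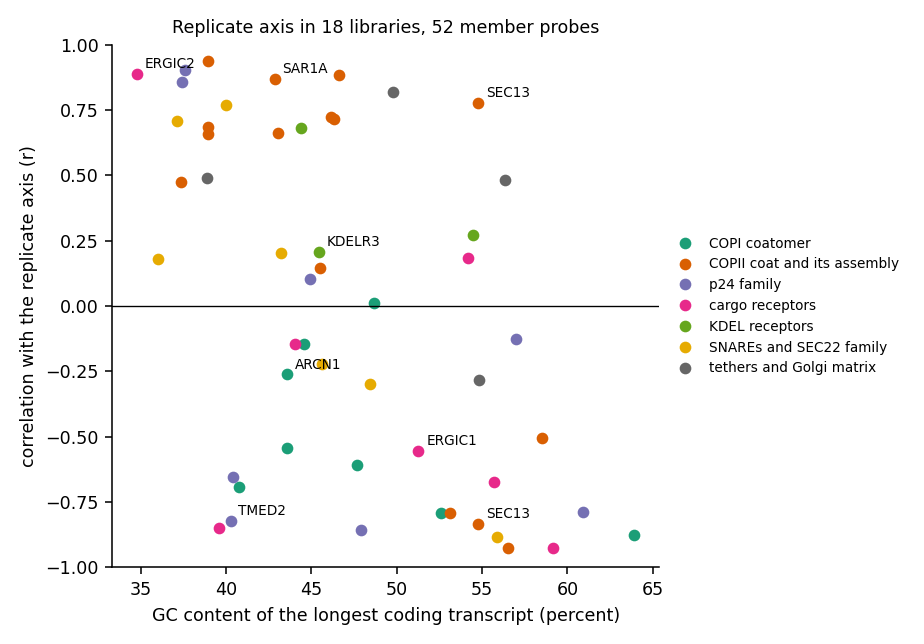
Correlation of each of 52 member probes with the main axis of replicate variation in 18 libraries (vertical axis) against the GC content in percent of the gene's longest coding transcript (horizontal axis), colored by class. Members spread from near -0.9 to near 0.9, and the 2 SEC13 probes, at the same GC content, lie at -0.83 and 0.78.

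Genes of the same pathway outside the module were given by 5 lists: the Golgi Arf cycle (11 genes), ER exit site accessories (17), the tethering complexes TRAPP, COG and Dsl1 (25), other SNARE machinery and golgins (21), and ER chaperones with the unfolded protein response (22). In the common fit 0 of the 12, 13, 19, 22 and 20 tested probes of these lists had a limma adjusted p under 0.05, beside 1.74% of all probes, with medians of 0.09, -0.13, 0.15, 0.23 and 0.08. Within lines, the tested probes of the lists, in the same order, were 11, 12, 18, 22 and 19 in BT549, 11, 12, 19, 22 and 20 in Hs578T and 12, 13, 19, 19 and 19 in SUM149PT, and 6.97%, 2.78% and 9.56% of all probes passed. The ER stress proteins MANF and CRELD2 passed the study's limits downward in BT549 (Log2 FC -1.58, SE 0.50, and -1.08, SE 0.42), as did NAPG and RAB2A. DDIT3, the stress factor CHOP, was higher in SUM149PT (Log2 FC 2.14, SE 0.39), as were RAB1A and GOLGA3, and CIDEB was lower. MIA3, the cargo receptor for collagens, was higher in Hs578T (Log2 FC 1.41, SE 0.63). No gene of the Golgi Arf cycle or the tethering complexes passed within any line with all libraries. Without the library labelled SUM149PT siCtrl replicate 2, 1, 1, 6, 6 and 2 probes of the lists passed in SUM149PT, beside 23.4% of all probes, and CIDEB did not. In the siCtrl libraries, where the lists had 11, 13, 19, 21 and 21 tested probes, SUM149PT was lower than Hs578T for 2 exit site probes (YIF1B and TRIM21), 2 tethering probes (TRAPPC4 and TRAPPC12), 3 SNARE machinery probes (NAPA, NAPG and RAB2A) and 2 of the chaperone list (SEL1L and DDIT3), and higher for CIDEB and TRAPPC2L, beside 20.2% of all probes. Against BT549 it was lower for TRAPPC4 and NAPA and higher for ARFGAP2, CTAGE5 and CIDEB, beside 18.2% of all probes. COG5 was lower in BT549 than in Hs578T, beside 13.8%. Without that library 2, 4, 5, 4 and 6 probes passed in SUM149PT against Hs578T and 4, 3, 5, 5 and 7 against BT549, beside 30.7% and 33.2% of all probes.

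The start regions of the members were searched for motifs, because several members are known as targets of the unfolded protein response. RefSeq promoters (GRCh38.p14, 250 bases before to 50 after the start) were matched for 49 of 55 members, and SEC24D, TMED4, TMED9, ERGIC1, KDELR2 and USO1 had no match. The motifs, read on both strands, were TGACGTGG (the core of the unfolded protein response element), both forms of the ER stress response element, which overlap its last letters, and TGACGTCA (the cAMP response element). Shorter motifs were TGACG, contained in the first and the last of these, the E-box CACGTG, the GC box GGGCGG and the CCAAT box. TGACGTGG was found in 8 of 49 member promoters (16.3%), against 0.729% of 35116 promoters and 0.768% of the 20451 promoters of genes on the panel. TGACG was found in 51.0% against 24.6% of all promoters and 28.0% of the panel promoters, GGGCGG in 73.5% against 45.0% and 57.1%, CCAAT in 40.8% against 34.6% and 34.5%, and CACGTG in 10.2% against 7.26% and 8.3%. TGACGTCA and both forms of the ER stress response element were found in 0 members, against 1.85%, 0.0769% and 0.0541% of all promoters and 2.24%, 0.112% and 0.0733% of the panel promoters. These are matches of letters, and binding was not measured.

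The 30 bases around each TGACGTGG are shown because the same 8 letters recur in 3 COPI subunits, 3 COPII genes, KDELR3 and the Golgi SNARE STX5. Each is written 5′ to 3′ on the strand that reads TGACGTGG, with the motif in capitals.
COPA (chr1:160343227-160343256, minus strand): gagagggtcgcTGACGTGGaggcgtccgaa
COPB1 (chr11:14499841-14499870, plus strand): gagtccttggcTGACGTGGaagggggtggg
COPB2 upstream match (chr3:139389825-139389854, plus strand): actaagggccgTGACGTGGtgccgctgagc
COPB2 downstream match (chr3:139389632-139389661, plus strand): gtcagactgacTGACGTGGaacttccggga
SEC23A (chr14:39103221-39103250, minus strand): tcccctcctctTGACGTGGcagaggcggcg
SEC24A (chr5:134648595-134648624, plus strand): gtgagagtcggTGACGTGGcggcgaggccg
SEC16A (chr9:136484707-136484736, plus strand): ttcagtccggcTGACGTGGcaccagggcca
KDELR3 (chr22:38468039-38468068, minus strand): tggccgggcggTGACGTGGccagggcggcc
STX5 (chr11:62832049-62832078, minus strand): ttacgtgtaggTGACGTGGccgcttccagt

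The longer stretches before the annotated start are shown for KDELR3, which holds the motif on the opposite strand in capitals, for its paralog KDELR1, which holds none, and for ARCN1 with TGACG in capitals. All are written on the strand of the gene.
KDELR3 (chr22:38467846-38468061, plus strand): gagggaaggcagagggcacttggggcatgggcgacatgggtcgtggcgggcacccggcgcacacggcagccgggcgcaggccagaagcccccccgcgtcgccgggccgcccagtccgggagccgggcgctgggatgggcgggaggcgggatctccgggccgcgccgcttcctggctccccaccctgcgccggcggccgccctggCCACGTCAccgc
KDELR1 (chr19:48391554-48391801, minus strand): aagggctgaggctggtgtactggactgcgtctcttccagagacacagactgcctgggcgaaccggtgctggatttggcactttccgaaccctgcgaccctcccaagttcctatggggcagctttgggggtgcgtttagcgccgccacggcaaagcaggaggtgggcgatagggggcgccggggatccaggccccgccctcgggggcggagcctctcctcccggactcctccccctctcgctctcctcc
ARCN1 (chr11:118572159-118572389, plus strand): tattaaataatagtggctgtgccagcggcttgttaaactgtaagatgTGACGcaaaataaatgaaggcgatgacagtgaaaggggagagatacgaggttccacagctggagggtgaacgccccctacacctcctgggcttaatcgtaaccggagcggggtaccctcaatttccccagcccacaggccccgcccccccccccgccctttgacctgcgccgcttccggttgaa

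The members with TGACGTGG had values on both sides of 0. After siASAP1 in BT549 the Log2 FC was -1.16 for KDELR3, 0.36 for COPB2, -0.23 for COPB1, -0.39 for COPA, -0.18 for SEC23A, 0.40 for SEC16A, 0.26 for STX5 and -0.51 for the higher SEC24A probe, and KDELR3 alone passed the limits. In SUM149PT against Hs578T, KDELR3 was the only one of them to pass with all libraries, and SEC16A (0.85, SE 0.68), STX5 (0.20, SE 0.48) and COPB2 (0.04, SE 0.35) lay above 0. Without the library labelled SUM149PT siCtrl replicate 2, SEC23A (-1.59, limma adjusted p = 0.0356), the higher SEC24A probe (-2.67, limma adjusted p = 0.00355) and SEC16A (1.65, limma adjusted p = 0.0271) passed there as well.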

How the data were processed

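Expression was measured by TempO-Seq in 18 libraries of 3 TNBC cell lines, grouped by the labels. The authors counted reads per probe, scaled each library by a size factor (DESeq2) and deposited log2 of the scaled count plus 1. The submitters' notes also name bcl2fastq and Bowtie, with no versions, and the genome build is not given in the sources used here. Undoing the log2 gave whole reads (tolerance 0.02) for 100% of values, so depth is known (4.63 to 12.5 M reads). P-values measure the spread between these 3 libraries per group.

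Differences were fitted with limma 3.58.1 (trend) in R 4.3.3 on probes averaging 10 or more normalized counts. Cell lines were fitted on their own 6 libraries, the common effect and the interaction on 18, and the lines against each other on 9 siCtrl libraries. The members, lists and promoter motifs were chosen with earlier results of these data known, so p-values are not independent support and none was adjusted over the list. Named were up to 3 members per direction with the smallest p per silencing comparison, up to 5 for the common effect, the 2 smallest p for the interaction and up to 4 per direction by size between lines. Paralogs were given beside them. Other members, lists' genes and marker genes were named after their values were seen. Library 2 of SUM149PT siCtrl and library 1 of BT549 siASAP1 were left out because of their values.

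The alternatives were library totals, quantile normalization, no filter, a minimum of 50, a pseudocount of 0.1, the replicate number as a block, voom weights on recovered reads, summed probes, all 18 libraries in a single fit, adjusted p-values and each library left out. Of fits to the recovered reads, only voom was run. The scripts were tested on simulated data. Promoters came from RefSeq (GRCh38.p14) and positions and GC content from GENCODE release 29. Figures used Python 3.11.15 and matplotlib 3.10.9. The probe sequences were not used here. A further marker list is not reported here.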

Additional observations from a re-analysis of the deposited data

How the results depend on the processing

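Among the named probes 153 of the values under settings other than a left-out library kept their direction and their side of the limits and 13 kept the direction but lost the call, and with a library left out these were 106 and 56. None turned its direction. ERGIC1 in the common fit kept its call in each of 8 settings and 18 fits with a library left out (Log2 FC -2.10 to -1.73). Its limma adjusted p reached 0.0448 in 1 of the 8 settings, close to the limit.

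Requiring a limma adjusted p under 0.05 left 0 members in each of BT549, Hs578T and SUM149PT (4, 4 and 2 at an unadjusted p under 0.05). All 18 libraries in a single fit gave 4 members in SUM149PT and 4 in BT549 against Hs578T (15.5% and 16.9% of all probes). Scaling by library totals gave 1 in the common fit (1.93%) and 10 in SUM149PT against BT549 (18.1%). Quantile normalization and no filter on low values each gave 1 in the common fit (1.24% and 0.621%). The cause was not tested. With a library left out, member counts ran from 2 to 9 in BT549, 1 to 2 in Hs578T (ERGIC1 fell just short, at -0.998, without siCtrl replicate 3, where SEC22A and SAR1A passed), 1 to 10 in SUM149PT, 1 to 2 in the common fit, 0 to 0 for the interaction, 0 to 7 in BT549 against Hs578T, 1 to 12 in SUM149PT against BT549 and 3 to 15 in SUM149PT against Hs578T. The lowest counts between lines came without BT549 siCtrl replicate 2 or 3 or Hs578T siCtrl replicate 1 or 2 (0), without BT549 siCtrl replicate 1 or 3 (1) and without Hs578T siCtrl replicate 1 or 2 (3), and SUM149PT siCtrl replicate 1 or 3 left out gave 3 members against BT549. The shares of all probes called in these fits ran, in the same order, from 3.44% to 22.5%, 1.66% to 6.67%, 4.95% to 23.4%, 0.942% to 1.97%, 0.00953% to 0.25%, 8.81% to 21.3%, 12.8% to 33.2% and 13.3% to 30.7%.

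The sources used here do not say whether same-numbered siASAP1 and siCtrl libraries were handled together, and not every pair's deviations correlated at over 0.1, so the numbers were not taken to pair them. The correlations were -0.18, -0.35 and 0.11 in BT549, 0.10, 0.34 and 0.35 in Hs578T and -0.32, -0.65 and -0.34 in SUM149PT. The replicate block gave 1 member in SUM149PT, 1 in the common fit and 4 in BT549 against Hs578T (3.48%, 0.325% and 15.4% of all probes), and changed no other count by more than 1.5 times. Members under a mean normalized count of 10 were not tested in the fits with that filter.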
